A study of Mus musculus with 15 samples.

Results

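Cells make cholesterol and fatty acids from the same precursor, acetyl-CoA, through separate sets of enzymes. The genes described here are 34 listed genes of these pathways: 19 of the sterol branch, 10 of the fatty acid branch and 5 regulators of the SREBP transcription factors. They were listed by name, with no measured value in the rule, though earlier results of these data were known when the list was made. Of the 34, 33 were measured among 19937 genes in all, 18 of them in the sterol branch. Acat2 is not reported here.

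RNA was measured on 15 single-colour whole-transcript arrays of mouse embryonic stem (ES) cells, 3 arrays in each of 5 groups. All 15 came from a single line, which limits them as a model. It is a Ctnnb1-Biotin-3xFLAG knock-in that also carries the biotin ligase BirA (Ctnnb1-BioFLneo;BirA), and it had been adapted to 2i, the combination of CHIR99021 and PD0325901. CHIR99021 inhibits the kinase GSK3, an antagonist of Wnt/beta-catenin signalling, while PD0325901 blocks MEK, which acts directly upstream of ERK. The 2iLIF group was kept long term with 3 µM CHIR99021, 1 µM PD0325901 and the cytokine LIF. The other groups were without LIF: 2i kept both inhibitors, CHIR kept CHIR99021 alone, PD03 kept PD0325901 alone, and DMSO kept neither, with factors withdrawn for 24 h before RNA extraction. Because the line had been adapted to 2i, the groups without an inhibitor are those from which it was withdrawn. Below, lower, higher, fall and rise give the direction of the named difference between groups, not a change over time. The ages, animals or cultures behind the replicates are not in the labels, so every p-value measures the spread between these arrays, which may be technical.

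In the sterol branch, acetyl-CoA is built up to mevalonate, then to farnesyl diphosphate, and 2 molecules of that are joined to squalene, which is closed to lanosterol and trimmed to cholesterol. In the fatty acid branch, acetyl-CoA is carboxylated, built into palmitate, and then elongated and desaturated. SREBP proteins, encoded by Srebf1 and Srebf2, are held in the endoplasmic reticulum with the escort protein Scap by Insig1 and Insig2 when sterols are plentiful. When sterols are scarce, they are cut, enter the nucleus and activate genes of both branches, with SREBP2 acting mostly on the sterol genes and SREBP1 mostly on the fatty acid genes.

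SREBPs bind short elements of which TCACCCCA is a common form, often beside CCAAT boxes bound by NF-Y and GC boxes bound by Sp1. The stretches upstream of 5 genes that the results turn on follow, 5′ to 3′ on the gene's strand. Each is the 250 bases before the start site in RefSeq (GRCm38.p6). Hmgcs1 and Lss were lower with CHIR99021, Ebp was higher, and Srebf2 encodes the sterol-branch SREBP. Fads2 was the fatty acid gene that was lower with CHIR99021 both with and without PD0325901. Capitals mark TCACCCCA, CCAAT, and ATTGG, which is CCAAT read on the other strand. Hmgcs1 lies at chr13:119690101-119690350 on the plus strand, Lss at chr10:76531355-76531604 on the plus strand, Srebf2 at chr15:82147019-82147268 on the plus strand, Ebp at chrX:8193513-8193762 on the minus strand and Fads2 at chr19:10101504-10101753 on the minus strand.
Hmgcs1: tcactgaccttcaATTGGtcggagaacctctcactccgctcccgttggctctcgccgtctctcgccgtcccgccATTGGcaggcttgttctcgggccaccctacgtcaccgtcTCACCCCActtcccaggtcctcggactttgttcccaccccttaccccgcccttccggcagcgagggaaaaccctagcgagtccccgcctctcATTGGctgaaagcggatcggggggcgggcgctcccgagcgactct
Lss: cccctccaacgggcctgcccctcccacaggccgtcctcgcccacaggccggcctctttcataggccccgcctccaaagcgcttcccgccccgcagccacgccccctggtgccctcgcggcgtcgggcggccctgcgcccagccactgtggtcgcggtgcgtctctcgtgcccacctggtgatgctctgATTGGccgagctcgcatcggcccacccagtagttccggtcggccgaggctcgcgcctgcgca
Srebf2: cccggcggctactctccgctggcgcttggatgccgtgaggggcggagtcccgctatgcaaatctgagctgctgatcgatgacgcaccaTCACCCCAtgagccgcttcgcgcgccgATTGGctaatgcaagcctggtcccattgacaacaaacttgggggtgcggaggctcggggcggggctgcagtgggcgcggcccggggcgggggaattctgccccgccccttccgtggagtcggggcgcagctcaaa
Ebp: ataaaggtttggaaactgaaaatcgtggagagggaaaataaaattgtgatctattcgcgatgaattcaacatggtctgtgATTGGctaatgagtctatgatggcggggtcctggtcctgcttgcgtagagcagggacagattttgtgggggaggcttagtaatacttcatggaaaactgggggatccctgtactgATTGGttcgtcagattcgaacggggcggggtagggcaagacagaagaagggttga
Fads2: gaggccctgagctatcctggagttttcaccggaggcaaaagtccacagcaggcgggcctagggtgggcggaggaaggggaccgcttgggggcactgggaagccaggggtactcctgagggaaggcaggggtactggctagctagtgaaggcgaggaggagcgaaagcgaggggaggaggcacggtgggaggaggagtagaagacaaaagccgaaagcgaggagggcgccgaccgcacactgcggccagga

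Of these 5 windows, those of Hmgcs1 and Srebf2 hold TCACCCCA, and all but that of Fads2 hold CCAAT on 1 of the strands. The RefSeq table held windows for 27 of the 34 listed genes, 35 windows in all because some genes have several start sites. It has no entry here for Sqle, Fdps, Fdft1, Scd1, Scd2, Fads1 and Stard4. With both strands searched and start sites of 1 gene counted separately, CCAAT was in 14 of 18 sterol windows (77.78%), 5 of 10 regulator windows and 2 of 7 fatty acid windows (28.57%), against 33.85% of all 32851 windows. The GC box GGGCGG was in 15 of 18 sterol windows (83.33%) and 2 of 7 fatty acid windows (28.57%), against 32.74% of all windows. TCACCCCA was in 1 sterol window, that of Hmgcs1, in 1 regulator window, that of Srebf2, and in 1.34% of all windows. A match describes these letters alone, and no match says only that they are not in this stretch.

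Values are log2 array signals, so a difference of 1 is a doubling, and levels of different genes are not comparable because each has its own probes. A gene was called where limma gave a Benjamini-Hochberg adjusted p under 0.05 over all 19937 genes, and differences are given ± their standard error (SE). The treatments were visible in Axin2, a target of beta-catenin, with group means of 9.19 to 9.36 in the 3 groups given CHIR99021 and 7.66 to 7.86 in the others. Dusp6, a target of ERK, had a mean of 11.06 in DMSO, 10.41 in CHIR and 9.29 to 9.48 in the 3 groups given PD0325901. Socs3, a target of LIF signalling, stood at 8.92 to 9.08 on the 2iLIF arrays and had group means of 7.36 to 7.77 elsewhere. The 6 ES cell markers averaged 11.68 to 11.76 on the arrays of 4 groups and 11.52 to 11.58 on the DMSO arrays. This average hides larger differences in opposite directions. Nanog had a mean of 12.72 in 2iLIF and 11.74 in DMSO, Zfp42 10.66 and 9.82, and Utf1 11.57 and 12.51. The group means of Pou5f1, Sox2 and Sall4 spanned 0.05, 0.16 and 0.14. The lists for fibroblasts or feeder cells, extra-embryonic endoderm and trophoblast averaged at most 6.63 on any array. Of their markers, 6 (Lum, Postn, Afp, Ttr, Elf5 and Gata3) had group means below 6, near background. The others reached 6 or more in at least 1 group, with group means of 7.58 to 7.77 for Col1a1, 7.45 to 7.80 for Gata4 and 7.35 to 7.44 for Foxa2. These averages do not show such cells to be absent.

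With CHIR99021 kept alone, the sterol branch was lower than with both inhibitors withdrawn. Of its 18 measured genes, 13 were lower in CHIR than in DMSO, where 10.8% of all genes were lower, and 1, Ebp, was higher, where 10% of all genes were higher. The branch had a median difference of -0.21, against -0.01 over all genes, and its 13 calls lay between 1.11-fold and 1.28-fold. The fatty acid branch did not follow: 2 of its 10 genes, Fads2 and Lpin1, were lower, none was higher, and its median difference was -0.03. The branches are set side by side by these counts and medians, and the difference between them was not tested. In 15 of the 18 sterol genes and 4 of the 10 fatty acid genes the CHIR and DMSO arrays did not overlap, which held for 31.9% of all genes.

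**Figure D1:**
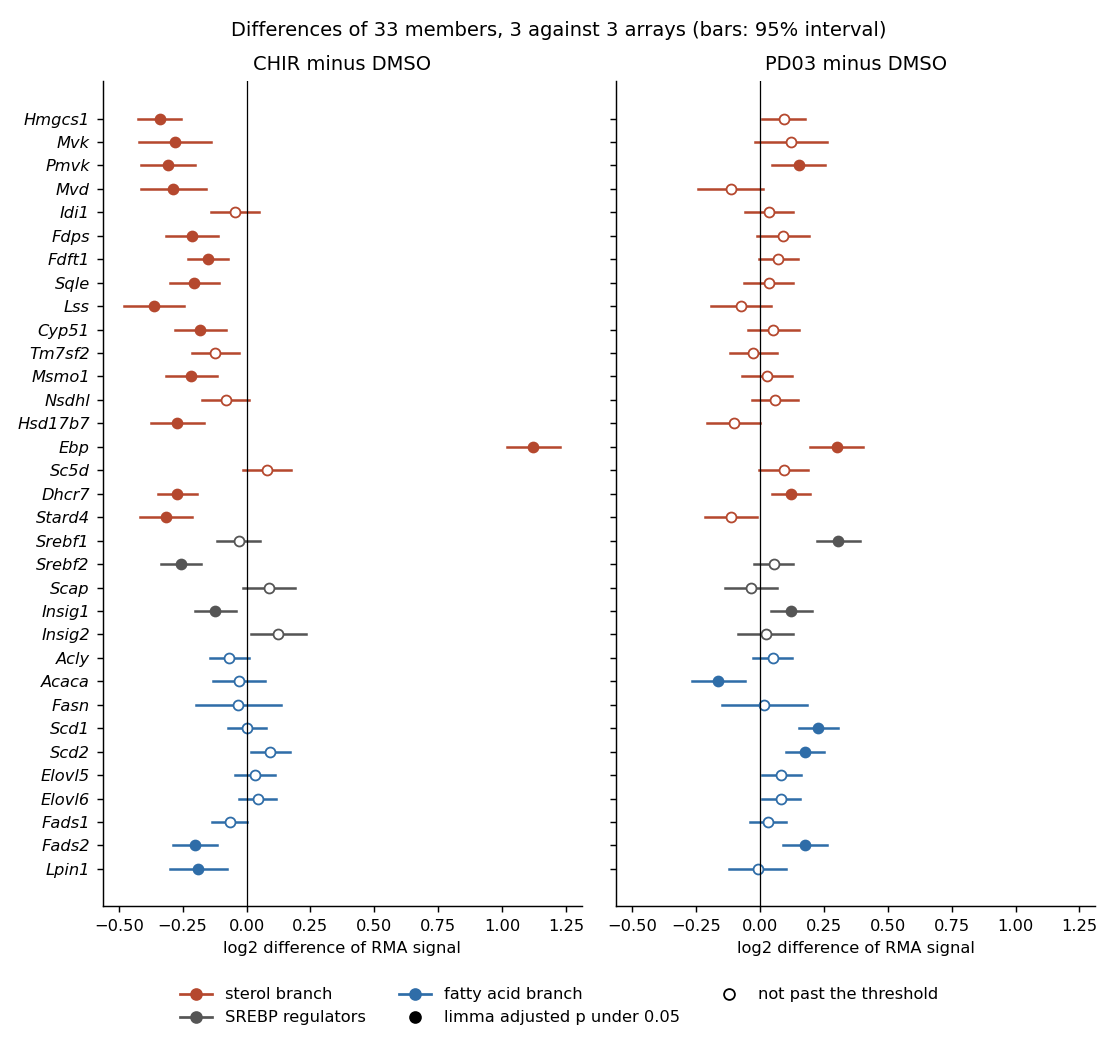
The log2 difference of each of the 33 measured genes in CHIR minus DMSO (left) and PD03 minus DMSO (right), coloured by branch, with 95% intervals as bars and filled points for limma adjusted p under 0.05. In CHIR minus DMSO the points of the sterol genes lie left of 0 apart from Ebp at 1.12 and Sc5d at 0.08, and the fatty acid genes lie between -0.20 and 0.09.

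The mevalonate part of the branch, from HMG-CoA to farnesyl diphosphate, was lower in 5 of its 6 measured genes, against 10.8% of all genes. Hmgcs1, which makes HMG-CoA, stood at 11.75, 11.79 and 11.86 in DMSO and 11.46, 11.45 and 11.48 in CHIR. The CHIR arrays lay below every DMSO array, and the difference of -0.34 ± 0.04 (1.27-fold lower) was called (limma adjusted p = 1.2e-05). Pmvk, the phosphomevalonate kinase, stood at 9.33, 9.30 and 9.41 in DMSO and 9.02, 8.95 and 9.14 in CHIR, again without overlap (-0.31 ± 0.05, limma adjusted p = 0.000268). Mevalonate kinase (Mvk, -0.28), the decarboxylase Mvd (-0.29) and farnesyl diphosphate synthase (Fdps, -0.21) were also lower, with limma adjusted p of 0.00245 to 0.00633. Idi1, the isomerase that makes the second building block of farnesyl diphosphate, differed by -0.05 ± 0.04 and was not called.

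From squalene to cholesterol, 7 of 11 genes were lower, against 10.8% of all genes, and 3 were not called. The 1 that was higher, Ebp, is a share near the 10% of all genes. Lss, which closes squalene epoxide into lanosterol, stood at 10.82, 10.99 and 11.06 in DMSO and 10.64, 10.54 and 10.60 in CHIR, so the groups did not overlap (-0.36 ± 0.06, 1.28-fold lower, limma adjusted p = 0.000177). Dhcr7, the reductase of a last step, was at 10.63, 10.69 and 10.66 in DMSO and 10.42, 10.35 and 10.39 in CHIR (-0.27 ± 0.04, limma adjusted p = 4.15e-05). The sterol reductase gene Tm7sf2 differed by -0.12 with groups that did not overlap, yet missed the threshold (limma adjusted p = 0.0551). The other lower genes included Hsd17b7 (-0.27) and Msmo1 (-0.22), which act in the removal of methyl groups from the sterol ring. Also lower were the squalene epoxidase Sqle (-0.20), the lanosterol demethylase Cyp51 (-0.18) and the squalene synthase Fdft1 (-0.15). Nsdhl, which works with Msmo1 (-0.08, limma adjusted p = 0.223), and the sterol desaturase Sc5d (0.08, limma adjusted p = 0.259) were not called. The Cyp51 call was lost without DMSO replicate 1 and the Fdft1 call with its other probe set (limma adjusted p = 0.0563). Both calls were also lost with each array centred on its median. Stard4, a carrier of sterol between membranes, stood at 9.96, 9.99 and 10.02 in DMSO and 9.61, 9.68 and 9.73 in CHIR (-0.32 ± 0.05, limma adjusted p = 0.00016).

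Ebp, the sterol isomerase that acts after lanosterol, went the other way and had the biggest difference of the 33 genes. It stood at 9.47, 9.49 and 9.55 in DMSO, 9.85, 9.79 and 9.77 in PD03, and 10.62, 10.54 and 10.70 in CHIR. In 2i it was at 10.66, 10.66 and 10.78, and in 2iLIF at 10.63, 10.74 and 10.71. The 3 groups given CHIR99021 overlapped with each other and lay above PD03, which lay above DMSO. The rise was 1.12 ± 0.05 in CHIR minus DMSO (2.18-fold, limma adjusted p = 2.11e-10) and 1.20 ± 0.05 in 2i minus DMSO (2.29-fold, limma adjusted p = 4.63e-11).

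**Figure D2:**
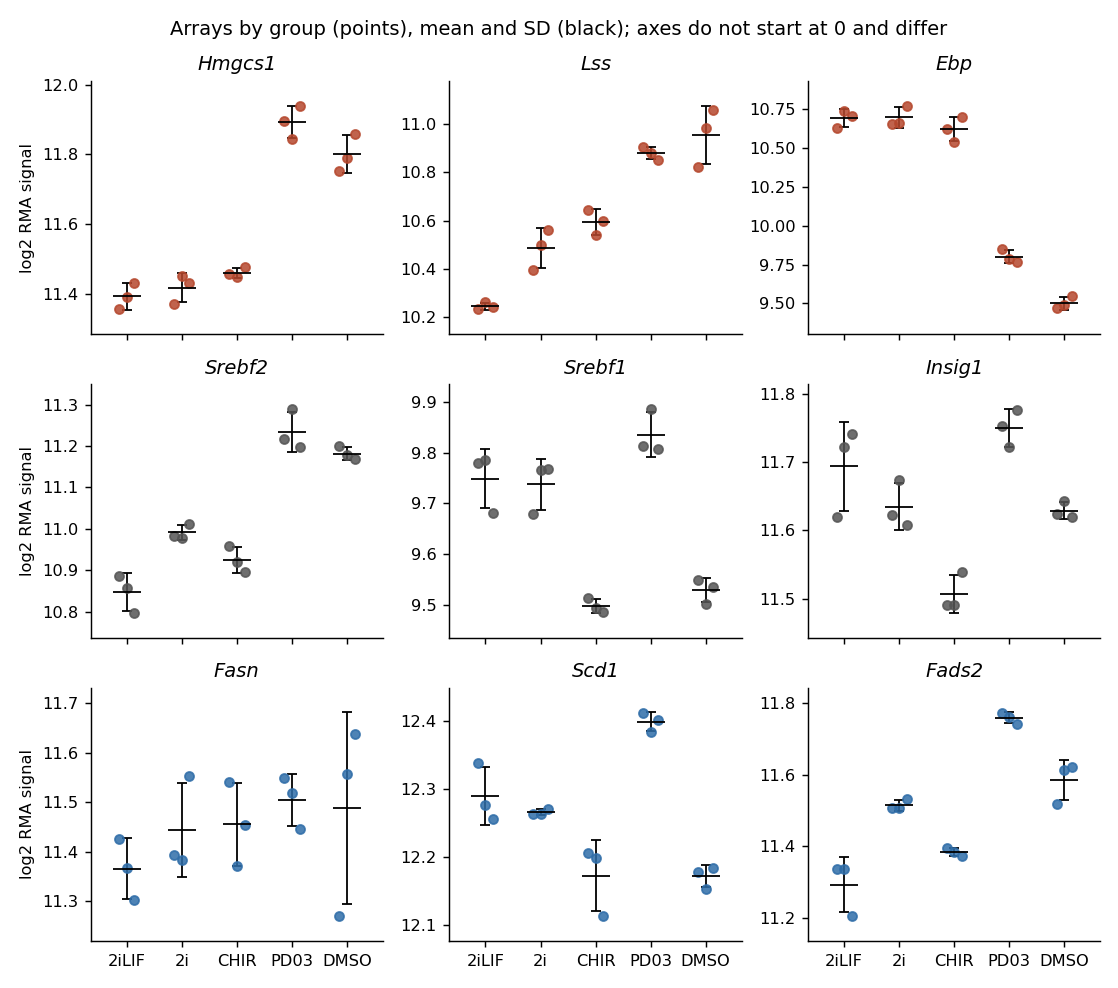
Log2 signal on each of the 15 arrays for 9 members, 3 of the sterol branch, 3 regulators and 3 of the fatty acid branch, with points for arrays and black marks for each group's mean and SD; the axes differ and do not start at 0. Ebp is high in the 3 groups given CHIR99021 (10.54 to 10.78) and low in DMSO (9.47 to 9.55), while Hmgcs1 is low with CHIR99021 (11.36 to 11.48) and high without it (11.75 to 11.94).

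The effect of CHIR99021 can be read again in cells that had PD0325901 throughout, from 2i minus PD03. That comparison shares no array with CHIR minus DMSO, but the calls of both use the same spread per gene, estimated over all 15 arrays. Their calls are therefore not fully independent. In 2i minus PD03, 15 of the 18 sterol genes were lower, against 9.44% of all genes, and Ebp was higher, against 10.1%. The median was -0.24, against 0.01 over all genes. All 13 sterol genes that were lower in CHIR minus DMSO were lower here too, which is 100% of that list and 86.7% of this one, and Ebp was higher in both. Nsdhl (-0.14) and Idi1 (-0.25) were lower here and not called in CHIR minus DMSO. Of all genes, 1243 (6.23%) were lower in both and 1160 (5.82%) higher in both. The 1243 come from 2146 genes lower in CHIR minus DMSO and 1883 lower in 2i minus PD03. Most lower calls over all genes thus repeated too. The arrays of 2i and PD03 did not overlap in 16 of 18 sterol genes and 4 of 10 fatty acid genes, against 35.8% of all genes; the sterol genes that overlapped were Tm7sf2 and Sc5d. Hmgcs1 stood at 11.90, 11.85 and 11.94 in PD03 and 11.37, 11.45 and 11.43 in 2i, a difference of -0.48 ± 0.04 (1.39-fold lower, limma adjusted p = 4.01e-07). Ebp rose by 0.90 ± 0.05 (1.86-fold, limma adjusted p = 3.8e-09). Of the fatty acid genes, 2 of 10 were lower, Fads2 (-0.24) and the desaturase Scd1 (-0.13), and none was higher; without PD03 replicate 1 the count was 1. Of the 15 lower sterol genes, Mvk, Mvd, Nsdhl and Fdps each lost the call without at least 1 array, and without 2i replicate 2 the sterol calls, Ebp included, were 12. Idi1 lost it with its other probe set, where the difference was -0.00 ± 0.08 (limma adjusted p = 0.996).

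**Figure D3:**
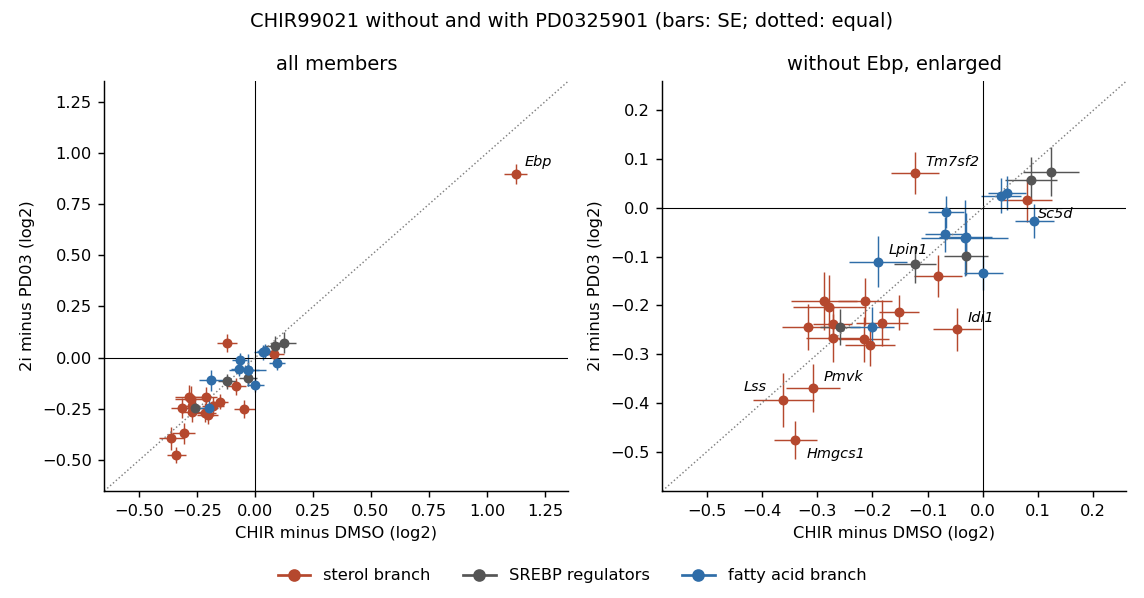
The log2 difference made by CHIR99021 without PD0325901 (CHIR minus DMSO, horizontal) and with it (2i minus PD03, vertical) for each of the 33 genes, bars being SE and the dotted line marking equality. The left panel shows Ebp at 1.12 and 0.90, and the enlarged right panel shows most sterol genes below 0 on both axes, with Idi1 at -0.05 and -0.25 and Tm7sf2 at -0.12 and 0.07.

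On the 9 arrays of cells given CHIR99021, 11 of the 18 sterol genes lay below all 6 arrays of cells without it, and Ebp lay above all 6; 5.16% of all genes lay below and 5.1% above. The 11 were Hmgcs1, Pmvk, Mvd, Fdft1, Sqle, Lss, Cyp51, Msmo1, Hsd17b7, Dhcr7 and Stard4. None of the 10 fatty acid genes separated these arrays. Sqle, for one, was at 11.28, 11.35 and 11.41 in DMSO and 11.37, 11.36 and 11.41 in PD03, and at 11.03 to 11.21 in 2i and CHIR and 10.83 to 10.88 in 2iLIF. Neural progenitor markers moved across the same groups: Pax6, Sox1 and Nes, the 3 of 4 measured, averaged 7.31 to 7.55 on the arrays with CHIR99021, 7.82 to 7.87 on the DMSO arrays and 8.15 to 8.18 on the PD03 arrays. Pax6 and Sox1 had lower group means in all 3 groups with CHIR99021 than in DMSO, while the mean of Nes was 7.05 in CHIR but 7.50 in 2i and 7.53 in 2iLIF, against 7.41 in DMSO. Their part in the sterol and Ebp results was not tested. In RNA from whole cultures, fewer cells of a type and less RNA per cell cannot be told apart.

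Whether CHIR99021 acted differently with and without PD0325901 was tested by the interaction, (2i minus PD03) minus (CHIR minus DMSO). No member passed: limma called 0 of 33, against 2.04% of all genes, and the lowest adjusted p was 0.131. At an unadjusted p under 0.05 there were 6 members (Hmgcs1, Idi1, Tm7sf2, Ebp, Scd1 and Scd2), against 12.3% of all genes. For Ebp the interaction was -0.22 with a 95% interval from -0.37 to -0.08 before adjustment, and for Hmgcs1 it was -0.14 with an interval from -0.25 to -0.02.

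With PD0325901 alone, in PD03 minus DMSO, 3 of 18 sterol genes were higher, against 8.67% of all genes, and none was lower, against 8.15%; the median was 0.05. They were Ebp (0.30 ± 0.05, limma adjusted p = 0.000347), Pmvk (0.15, limma adjusted p = 0.0469) and Dhcr7 (0.12, limma adjusted p = 0.0272). Only the Ebp call held in all 15 fits that left out 1 array; with PD03 replicate 1 or 2 left out, the sterol count was 1. Of the fatty acid genes, 3 of 10 were higher and 1 was lower. The PD03 and DMSO arrays did not overlap in 6 of 18 sterol genes and 8 of 10 fatty acid genes, against 31.4% of all genes. Scd1, which makes monounsaturated fatty acids, stood at 12.18, 12.15 and 12.18 in DMSO and 12.41, 12.38 and 12.40 in PD03, without overlap (0.23 ± 0.04, limma adjusted p = 0.000221). Its relative Scd2 rose by 0.18 (limma adjusted p = 0.00196) and the desaturase Fads2 by 0.17 (limma adjusted p = 0.00643). Acaca, the carboxylase that commits acetyl-CoA to fatty acids, fell by 0.16 on the log2 scale (limma adjusted p = 0.0279), a call that its other probe set did not give (-0.03 ± 0.05, limma adjusted p = 0.751). The neural progenitor markers averaged 8.15 to 8.18 on the PD03 arrays and 7.82 to 7.87 on the DMSO arrays. By group means Pax6 (8.19 against 7.76) and Nes (8.06 against 7.41) were higher in PD03 and Sox1 (8.24 against 8.39) was lower. Their part in these differences was not tested.

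With both inhibitors and no LIF, the sterol genes were again low. In 2i minus DMSO 12 of 18 were lower, against 11.9% of all genes, and Ebp was higher, against 13.6%; the median was -0.20, against 0.02. Lss had the greatest negative difference, with 10.82, 10.99 and 11.06 in DMSO and 10.40, 10.50 and 10.56 in 2i (-0.47 ± 0.06, 1.39-fold lower, limma adjusted p = 7.7e-06). Idi1 was lower with the probe set used (-0.21, limma adjusted p = 0.00152) and not called with the other (-0.10, limma adjusted p = 0.41). Of the 13 sterol calls, Ebp included, 12 held in every fit with 1 array left out. The Dhcr7 call was lost without 2i replicate 1 or 2 or DMSO replicate 2 or 3. With only the compared groups in the fit, the calls of Dhcr7 and Fdft1 were lost. The 2i and DMSO arrays did not overlap in 14 of 18 sterol genes and 5 of 10 fatty acid genes, against 36% of all genes. Of the fatty acid genes, Scd2 (0.15) and the elongases Elovl6 (0.11) and Elovl5 (0.11) were higher and Acaca (-0.22, limma adjusted p = 0.00238) was lower; the calls of Elovl5 and Elovl6 each lost significance in several fits with 1 array left out, and without 2i replicate 2 the fatty acid count was 2. This comparison shares its DMSO arrays with the single-inhibitor comparisons.

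Between cells that kept PD0325901 beside CHIR99021 and cells that kept CHIR99021 alone, 2i minus CHIR, few members differed. Of 18 sterol genes, Dhcr7 (0.16) and Tm7sf2 (0.17) were higher, against 5.7% of all genes, and Idi1 (-0.17) was lower, against 3.76%. None of the 3 calls held in every fit with 1 array left out, and without 2i replicate 3 or CHIR replicate 2 the count was 0. Idi1 was not called with its other probe set (-0.03, limma adjusted p = 0.885). The fatty acid branch had 1 call, Acaca (-0.19 ± 0.05, limma adjusted p = 0.0187), which was lost without 2i replicate 1 or CHIR replicate 1 (0 calls each); without 2iLIF replicate 3 or DMSO replicate 1 there were 2. The arrays did not overlap in 5 of 18 sterol genes and 5 of 10 fatty acid genes, against 26.8% of all genes. With each array centred on its median, the sterol calls were 0 higher and 1 lower.

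Setting the inhibitors against each other, CHIR minus PD03, 14 of 18 sterol genes were lower, against 13.2% of all genes, and Ebp was higher (0.82 ± 0.05), against 12.6%. The arrays did not overlap in 15 of 18 sterol and 8 of 10 fatty acid genes, against 41.6% of all genes. Dhcr7 (-0.39), Pmvk (-0.46) and Hmgcs1 (-0.43) had limma adjusted p of 6.21e-07, 3.85e-06 and 6.6e-07. Of the 15 sterol calls, Ebp included, 12 held in each fit with 1 array left out. Those of Mvd, Nsdhl and Hsd17b7 did not, and with centred arrays the Stard4 call was lost as well. In the fatty acid branch 5 of 10 were lower and none was higher. The 5 were Fads2 (-0.38), Scd1 (-0.23), Lpin1 (-0.18), the citrate lyase Acly (-0.12) and the desaturase Fads1 (-0.10). Acaca was not called with the probe set used (0.13, limma adjusted p = 0.0557) but was higher with its other set (0.16, limma adjusted p = 0.0354). Fads2 stood at 11.77, 11.76 and 11.74 in PD03 and 11.40, 11.38 and 11.37 in CHIR, without overlap (limma adjusted p = 4.4e-06). Only the calls of Fads2 and Scd1 held in each fit with 1 array left out; without PD03 replicate 2 the fatty acid count was 2, and with any 1 CHIR array or PD03 replicate 3 left out it was 3. With arrays centred on their medians the fatty acid split was 1 higher and 2 lower.

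Fads2, which starts the desaturation of polyunsaturated fatty acids, and Lpin1, a phosphatidate phosphatase, were the fatty acid genes that were lower in CHIR than in DMSO. Fads2 stood at 11.52, 11.61 and 11.62 in DMSO and 11.37 to 11.40 in CHIR (-0.20 ± 0.04, limma adjusted p = 0.00201), and it was the 1 fatty acid gene lower in both CHIR minus DMSO and 2i minus PD03. Its level in 2i, 11.51 to 11.53, lay close to DMSO. Lpin1 was at 9.25, 9.05 and 9.17 in DMSO and 8.89, 9.07 and 8.95 in CHIR; these overlapped, and its call (-0.19 ± 0.05, limma adjusted p = 0.0163) was lost without CHIR replicate 1 or 3 or DMSO replicate 1, leaving 1 fatty acid call. With arrays centred on their medians the fatty acid split in CHIR minus DMSO was 1 higher and 1 lower. Fasn, which builds palmitate, was called in no comparison. It stood at 11.27, 11.56 and 11.64 in DMSO, a wider spread than in CHIR (11.54, 11.37 and 11.45), and its difference of -0.03 ± 0.08 had a 95% interval from -0.20 to 0.13.

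The 5 SREBP regulators did not move as 1 group. Srebf2 stood at 11.20, 11.18 and 11.17 in DMSO and 11.22, 11.29 and 11.20 in PD03, and lower, at 10.96, 10.92 and 10.89, in CHIR. In 2i it was at 10.98, 10.98 and 11.01 and in 2iLIF at 10.89, 10.86 and 10.80, so all 9 arrays with CHIR99021 lay below the 6 without. It differed by -0.26 ± 0.04 in CHIR minus DMSO (1.20-fold lower, limma adjusted p = 8.85e-05) and by -0.24 ± 0.04 in 2i minus PD03 (limma adjusted p = 0.000172).

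Srebf1 was higher in the groups given PD0325901. It stood at 9.55, 9.50 and 9.54 in DMSO, 9.51, 9.49 and 9.49 in CHIR, and 9.81, 9.89 and 9.81 in PD03, with 9.68 to 9.77 in 2i and 9.68 to 9.79 in 2iLIF. All 9 arrays with PD0325901 were above the 6 without it, as for 2.69% of all genes. That also held for 2 of the 10 fatty acid genes, Scd1 and Elovl5, and for 0 of the 18 sterol genes. The rise was 0.31 ± 0.04 in PD03 minus DMSO (1.24-fold, limma adjusted p = 3.95e-05) and 0.24 ± 0.04 in 2i minus CHIR (limma adjusted p = 0.000889), while CHIR minus DMSO was -0.03 ± 0.04 (limma adjusted p = 0.689).

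Insig1, itself a target of SREBP and a brake on it, was 0.12 lower in CHIR and 0.12 higher in PD03 than in DMSO (log2 differences of -0.12 and 0.12, limma adjusted p = 0.0299 and 0.0369); each call was lost in at least 5 fits with 1 array left out. Between CHIR (11.49, 11.49 and 11.54) and PD03 (11.75, 11.72 and 11.78) the difference of -0.24 ± 0.04 held in all of them. Scap and Insig2 were called in no comparison.

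With LIF kept rather than withdrawn for 24 h, in 2iLIF minus 2i, a few members were lower. Lss (-0.24), Sqle (-0.25) and Hsd17b7 (-0.19) were lower, 3 of 18 sterol genes against 7.66% of all genes, and none was higher, against 4.56%. Sqle was at 11.03, 11.13 and 11.14 in 2i and 10.83, 10.88 and 10.85 in 2iLIF, without overlap (limma adjusted p = 0.00136). Of the fatty acid genes, Acaca was at 10.27, 10.34 and 10.34 in 2i and lower, at 10.06, 10.03 and 10.02, in 2iLIF (-0.27 ± 0.05, limma adjusted p = 0.000935). Fads2 was also lower (-0.22) and Lpin1 higher (0.19). The arrays did not overlap in 9 of 18 sterol and 6 of 10 fatty acid genes, against 26% of all genes. Ebp did not pass the test (-0.01, 95% interval -0.11 to 0.10). Srebf2 was lower by a log2 difference of -0.14 (limma adjusted p = 0.0144). The Srebf2 call was lost without 2iLIF replicate 3 or 2i replicate 3, the Hsd17b7 call without 2iLIF replicate 1 or 2i replicate 2 or 3, and the Lpin1 call without any 1 of the 2iLIF arrays or 2i replicate 1 or 3. The calls of Srebf2 and Hsd17b7 were also lost with only the compared groups and with centred arrays. Both groups had 3 µM CHIR99021 and 1 µM PD0325901, and they differed by LIF, which was withdrawn for 24 h in 2i. Any part of the length of culture was not tested.

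Averaged over its genes, the sterol branch stood at 10.62 ± 0.06 (SD, n = 3) in DMSO, 10.66 ± 0.02 in PD03, 10.48 ± 0.03 in CHIR, 10.50 ± 0.03 in 2i and 10.43 ± 0.02 in 2iLIF. The CHIR99021 arrays lay between 10.41 and 10.52 and the others between 10.56 and 10.68, with DMSO replicate 1 lowest of these. The fatty acid branch stood at 11.37 ± 0.03 in DMSO, 11.44 ± 0.01 in PD03, 11.33 ± 0.02 in CHIR, 11.37 ± 0.01 in 2i and 11.31 ± 0.03 in 2iLIF. The sterol mean minus the fatty acid mean, which has meaning only as a change between arrays, was -0.92 to -0.80 on the CHIR99021 arrays and -0.78 to -0.72 on the others. These averages describe the chosen lists and were not tested.

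**Figure D4:**
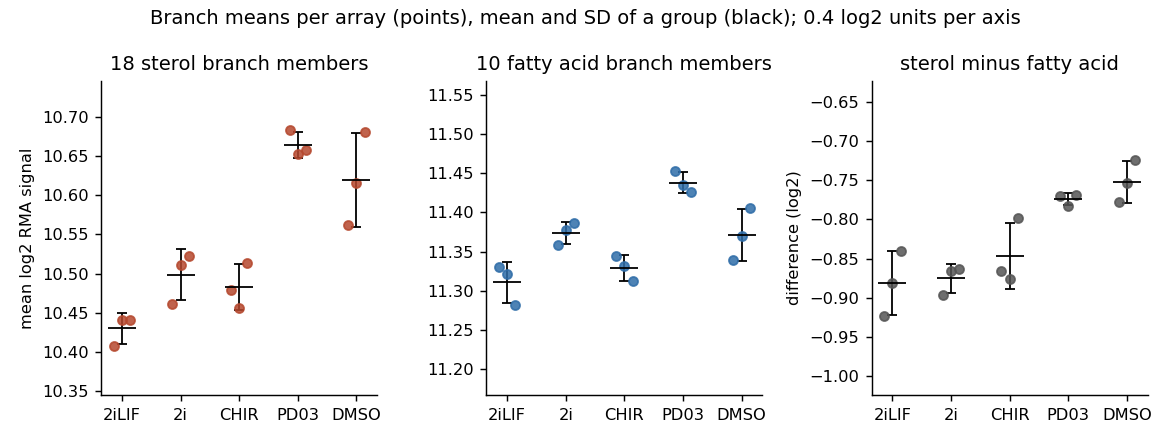
Mean log2 signal of the 18 sterol genes, of the 10 fatty acid genes, and their difference on each array, with points for arrays and black marks for each group's mean and SD. The sterol means of the 9 arrays with CHIR99021 (10.41 to 10.52) lie below those of the 6 without (10.56 to 10.68), while the fatty acid means overlap.

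Genes around the pathway moved in both directions. Of 11 measured genes of sterol transport, storage and efflux, 4 were higher and 3 lower in CHIR minus DMSO, against 10% and 10.8% of all genes. In PD03 minus DMSO 5 were higher and 1 lower, against 8.67% and 8.15%. Abcg1, an exporter of sterol, was at 9.29, 9.38 and 9.26 in DMSO and lower, at 8.65, 8.67 and 8.69, in CHIR (-0.64 ± 0.04, 1.55-fold, limma adjusted p = 9.84e-09). In PD03 the exporter Abca1 (0.65), the lysosomal sterol transporter Npc1 (0.50) and Mylip, a ubiquitin ligase that removes lipoprotein receptors (0.46), were higher, with limma adjusted p of 3.48e-06, 9.62e-08 and 4.98e-05. Npc2, the soluble partner of Npc1, was 0.51 higher in 2i than in DMSO (limma adjusted p = 2.71e-08). Of the 5 measured genes of SREBP processing and sterol sensing, Erlin1, part of a complex that holds SREBPs back, was higher in CHIR (0.27), PD03 (0.23) and 2i (0.30) than in DMSO. Of the 8 genes of mevalonate side branches, which make ubiquinone, dolichol and prenyl groups, 1 (Pdss2, 0.19) was higher, a share near the 10% of all genes, and none lower in CHIR minus DMSO. The Pdss2 call was lost with only the compared groups in the fit and without CHIR replicate 2 or DMSO replicate 2.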

How the data were processed

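Gene expression of 15 samples was measured on Affymetrix whole-transcript arrays. The values are log2 signals per probe set that the authors deposited after RMA, per the submitters' processing notes, which name no version. RMA corrects background, normalizes by quantiles and summarises probes, so changes shared by most genes are hidden and folds of low signals are compressed. The table had 34760 probe sets, array medians of 6.98 to 7.06 and 0 unused columns. The platform annotation gave 1 symbol for 21640 probe sets, several for 1321 and none here for 11799. Sets with several symbols were left out, and the set with the highest mean stood for a gene, which left 19937 genes. Idi1, Fdft1 and Acaca had more than 1 set with a single symbol. Srebf2 was also named on 1 set with several symbols, which was left out and not examined. No build was stated for the array annotation, so only the RefSeq promoter windows have coordinates.

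Samples were grouped by their labels. limma 3.58.1 (lmFit, eBayes; R 4.3.3) fitted a model of the 5 groups over the 15 arrays, for 8 comparisons, two-sided, with Benjamini-Hochberg adjustment over all genes, threshold 0.05 and no filter on level. It had 10 residual and 5.09 prior degrees of freedom, and 3 arrays a group limit the precision: the median SE of a difference was 0.0509, and 0.072 for the interaction. The fit was tested on simulated data. Named are all measured members, up to 3 called genes of each other list with the largest difference in a comparison, and 3 treatment checks. The members and lists were chosen with earlier results of these data known. Alternatives were a minimum level of 6, the mean of all probe sets, only the compared groups, a replicate block, eBayes with trend and robust settings, arrays centred on their median, array weights, each array left out, and, chosen after seeing the data, the other probe set of the 3 genes.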

Additional observations from a re-analysis of the deposited data

Results flagged for a closer look

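For 6 genes around the pathway, none of them among the 34, the response to CHIR99021 differed with and without PD0325901 by the test of the difference itself, given as a log2 difference of differences with its limma adjusted p. Abca1 differed by -0.53 (limma adjusted p = 0.00582): CHIR99021 made little difference without PD0325901, 7.68, 7.79 and 7.81 in DMSO against 7.96, 7.74 and 7.86 in CHIR, and a lower level with it, 8.54, 8.33 and 8.36 in PD03 against 7.89, 8.01 and 8.01 in 2i. Npc1 differed by -0.30 (limma adjusted p = 0.0051): the DMSO arrays were at 10.28 to 10.37 and the CHIR arrays at 10.41 to 10.48, while the PD03 arrays were at 10.80 to 10.82 and the 2i arrays at 10.61 to 10.70. These calls of Abca1 and Npc1 held under every alternative run, with adjusted p of at most 0.0197 and 0.0181.

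Abcg1 differed by 0.26 (limma adjusted p = 0.0227), its difference being -0.64 without PD0325901 and -0.38 with it. Elovl4, an elongase of very long fatty acids, differed by 0.39 (limma adjusted p = 0.0229). Elovl7, another elongase, differed by -0.31 (limma adjusted p = 0.0254), with rises of 0.86 without PD0325901 and 0.55 with it. Acsl5, which activates fatty acids with coenzyme A, differed by 0.46 (limma adjusted p = 0.0347). Each of these 4 calls was lost in several fits that left out 1 array of the 4 groups compared, with adjusted p of up to 0.0696, 0.0639, 0.0696 and 0.0986.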

How the results depend on the processing

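Over 8 comparisons and 33 members, 102 of 264 results were called; 72 kept the call in each fit with 1 array left out and 67 under every alternative, and 0 changed direction past the threshold. Calls lost and gained were 0 and 5 with a minimum level of 6, 3 and 1 with the mean of all probe sets, 16 and 1 with only the compared groups, 0 and 13 with trend and robust settings, 25 and 5 with centred arrays, 1 and 6 with array weights, and 5 and 1 with the other probe set.

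Counts that moved by over 1.5 times were these. With only the compared groups, calls were 1 of 10 fatty acid genes in CHIR minus DMSO, 1 of 18 sterol genes in PD03 minus DMSO and 2 of 10 fatty acid genes in 2i minus DMSO. With centred arrays, sterol calls were 1 in PD03 minus DMSO and 1 in 2i minus CHIR, and fatty acid calls 1 in 2i minus PD03 and 3 in CHIR minus PD03. Fatty acid calls in 2i minus CHIR were 2 with a minimum level of 6, 4 with trend and robust settings and 3 with array weights, and in 2iLIF minus 2i they were 5 with trend and robust settings. With 1 array left out, sterol calls ranged from 13 to 15 in CHIR minus DMSO, 1 to 3 in PD03 minus DMSO, 12 to 13 in 2i minus DMSO, 0 to 4 in 2i minus CHIR, 12 to 16 in 2i minus PD03, 12 to 15 in CHIR minus PD03 and 2 to 4 in 2iLIF minus 2i. Fatty acid calls ranged from 1 to 2, 3 to 4, 2 to 5, 0 to 2, 1 to 2, 2 to 6 and 2 to 3 in the same order. The interaction stayed at 0 in each. The cause was not tested. Arrays of the same replicate number were no more alike than others. Correlations of deviations were -0.364 to 0.341 for the same number, 10 of 30 over 0.1. For different numbers they were -0.432 to 0.443, 22 of 60 over 0.1. The replicate block lost 5 of the 102 calls and gained 0, those lost including Pmvk in PD03 minus DMSO and Mvd in 2i minus PD03.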

Other observations

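Among genes next to the fatty acid branch, some moved by over 1 on the log2 scale. Of 24 measured genes of other fatty acid and glycerolipid synthesis, 5 were higher and 7 lower in CHIR minus DMSO, against 10% and 10.8% of all genes. In PD03 minus DMSO 4 were higher and 7 lower, against 8.67% and 8.15%. Elovl7, an elongase, stood at 8.94, 8.78 and 8.74 in DMSO, 9.66 to 9.69 in CHIR, 9.76 to 9.80 in PD03, 10.28 to 10.37 in 2i and 10.61 to 10.71 in 2iLIF, so that no groups overlapped. It was 1.51 ± 0.05 higher in 2i than in DMSO (2.85-fold, limma adjusted p = 3.7e-12). Acsl4, which activates long polyunsaturated fatty acids, had the opposite order, from 11.11 to 11.26 in DMSO to 9.54 to 9.59 in 2iLIF, and was -1.11 ± 0.05 in 2i minus DMSO (limma adjusted p = 7.13e-11). Acss2, which makes acetyl-CoA from acetate, was 0.79 higher in PD03 than in DMSO (limma adjusted p = 7.49e-07) and had a log2 difference of -0.90 in CHIR minus PD03 (limma adjusted p = 1.05e-07).

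Of 16 measured genes of fatty acid oxidation, 3 were higher and 2 lower in CHIR minus DMSO, against 10% and 10.8% of all genes. In 2i minus DMSO 5 were higher and 2 lower, against 13.6% and 11.9%. The counts of lower genes are near these shares. Cpt1a, which carries fatty acids into mitochondrial oxidation, stood at 9.85, 9.48 and 9.50 in DMSO, 10.23 to 10.40 in CHIR, 10.25 to 10.32 in PD03, 10.69 to 10.76 in 2i and 10.87 to 10.94 in 2iLIF. It was 0.68 higher in CHIR, 0.67 higher in PD03 and 1.12 higher in 2i than in DMSO, with limma adjusted p of 8.98e-06, 1.15e-05 and 1.83e-08. Ehhadh, of peroxisomal oxidation, was 0.46 ± 0.06 higher in 2i than in DMSO (limma adjusted p = 2.49e-05).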
